A study of Branchiostoma lanceolatum with 8 samples.

Results

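Fox, Sox, T-box and Ets genes encode 4 families of DNA-binding transcription factors, and 30 gene identifiers of these families were followed here in amphioxus ectoderm treated with Activin. They were taken by symbol from the authors' deposited tables. Fox names had to begin with FOX, a letter from A to S and a digit, Sox and T-box names with SOX or TBX and a digit, or with EOMES. Ets names had to begin with ETS1, ETS2, ETV, ELK, ELF1 to ELF5 or FLI1, or to be ERG alone. Every such row was taken. The T-box gene T (Brachyury) lies outside this rule and was counted among the mesoderm markers. FOXA1, FOXA2, FOXB1, FOXD3, FOXH1, FOXJ1, SOX1, SOX2, SOX4 and TBX2 were set aside (16 identifiers). The 30 identifiers carry 25 symbols and stand among 18998 identifiers in all. They comprise 13 Fox, 4 Sox, 5 T-box and 8 Ets genes, and no row carried EOMES or FLI1. At 11 hours post fertilization (hpf) 25 of them had a row, at 19 hpf 27 had a row, and 22 had a row at both times.

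RNA was sequenced from explants of ectoderm, the outer layer that gives rise to epidermis and nervous system, of the amphioxus Branchiostoma lanceolatum. The labels give 4 groups of 2 libraries: Activin-treated explants at 11 hpf, control explants at 11 hpf, Activin-treated explants at 19 hpf and control explants at 19 hpf. Activin, a TGF-beta ligand that signals through the Nodal receptors, was given at 50 ng/mL as a human recombinant protein. Each library pooled explants of several fertilizations, no genotype is given, and the labels do not say how the explants were cut or from which stage.

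Each family is named for its DNA-binding domain: the forkhead domain of Fox proteins, the HMG box of Sox proteins, the T-box and the Ets domain. In chordate embryos, Fox and Sox genes mark and maintain germ layers, neural plate, cilia and proliferating cells, T-box genes regulate mesoderm, heart and limbs, and many Ets proteins carry the response to FGF and ERK signals. Amphioxus separated from the vertebrates before their genome duplications, so a single amphioxus gene often stands for several vertebrate ones. The human-style symbol in the authors' deposited table is therefore a label for the closest human gene. FOXD4, TBX3 and ETV6 covered 3, 3 and 2 identifiers, and reads that match several copies may have been split among them.

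The authors' deposited tables hold, for each time, a mean of normalized counts over libraries, a log2 fold change, its standard error and a Benjamini-Hochberg adjusted p of a two-sided Wald test. Values per library were not used here, so replicate spread enters only through the standard error. The headers do not name the numerator. LEFTY2, CHRD and GSC, Nodal targets or organizer genes of other chordates, had positive values at both times, and on that basis a positive value was taken as higher in Activin. A mean per group was computed from the deposited mean over libraries and the fold change, giving both groups equal weight. These means are normalized counts, not corrected for gene length, and the tables of the 2 times were normalized separately. A gene was called at an adjusted p below 0.05, and ± gives the authors' standard error of a log2 fold change. For a difference between times, ± gives the root of the summed squared standard errors of both times, computed here.

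The depth of each library is unknown; over all rows the mean counts added up to 9146020 (11 hpf) and 10891500 (19 hpf). The labelled tissue was checked against marker lists. Of 13 epidermis symbols 7 had rows at each time, with none for KRT18, TFAP2A, TFAP2B, TFAP2C, GATA3 and DLX5. Their group means summed to 13449 normalized counts in Activin and 324538 in control explants at 11 hpf, and to 39260 in Activin and 779176 in control explants at 19 hpf. KRT8 (BL15060), a keratin, carried most of these sums, and without it they were 9034 in Activin and 67250 in control explants at 11 hpf, and 8148 in Activin and 39197 in control explants at 19 hpf. Of 8 epidermis rows at 11 hpf 2 were called higher and 6 lower, and of 9 rows at 19 hpf 2 higher and 7 lower; the 2 higher rows were those of TP63 at both times. Motile cilia markers (9 of 11 symbols with rows, none for TEKT4 and CFAP52) summed to 4275 in Activin and 48376 in control explants at 11 hpf, and to 7481 in Activin and 92033 in control explants at 19 hpf. Neural markers (8 of 9 symbols, none for ELAVL3) summed to 31992 in Activin and 8263 in control explants at 11 hpf, and to 41639 in Activin and 6890 in control explants at 19 hpf. Their rows went both ways, 4 higher and 2 lower of 8 at 11 hpf and 5 higher and 3 lower of 10 at 19 hpf, with SYT1 and NEUROG2 lower at both times and STMN2 lower at 19 hpf. Of mesoderm markers 2 of 5 rows were higher at 11 hpf and 3 of 4 at 19 hpf, of muscle and somite markers 2 of 10 and 3 of 11, with 0 lower in either list. CHRD, whose sign had served to read the direction, is among these mesoderm rows and was higher at both times. Over all rows 12% were called higher at 11 hpf and 18.7% at 19 hpf. For muscle and somite markers, centring on ribosomal protein genes gave 2 higher and 1 lower at each time, while totals set equal gave 5 higher and 0 lower at 19 hpf. Of endoderm markers 3 of 7 rows were higher at each time, with 2 lower at 11 hpf and 1 at 19 hpf. At 19 hpf centring on ribosomal protein genes left 1 of these higher and 1 lower, and totals set equal gave 6 and 1. In bulk explants, fewer cells of a type and less RNA per cell cannot be told apart.

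Of the 30 genes, 10 were called at 11 or 19 hpf. The called share of genes with a row was 28% at 11 hpf and 22.2% at 19 hpf. Over all rows it was 36.6% and 46.4%. Of the 22 genes with a row at both times 3 were called at both, against 26.5% of all genes with a row at both. FOXJ3 was lower and FOXN3 was higher in Activin at both times. FOXM1 was lower in Activin at 11 hpf and higher at 19 hpf. FOXN4 was lower, and FOXO4, SOX14 and ETS1 were higher, at 11 hpf. FOXP1 and SOX7 were higher, and ETV6 (BL11461) was lower, at 19 hpf. None of the T-box genes taken by the rule was called at either time, and 0 of their values had an unadjusted p below 0.05. With upper quartiles set equal 1 of them was higher at 19 hpf, and with totals set equal 2 were. Outside the rule T (BL23557) was called higher at 19 hpf only, at 1.04 ± 0.40, adjusted p = 0.025 by the authors' Wald test. Centring on ribosomal protein genes, a log2 shift of -1.05 at 19 hpf, ended this call. T (BL23554) was not called at either time under the authors' scaling. With totals set equal all 4 mesoderm marker rows, both T rows among them, were higher at 19 hpf.

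**Figure D1:**
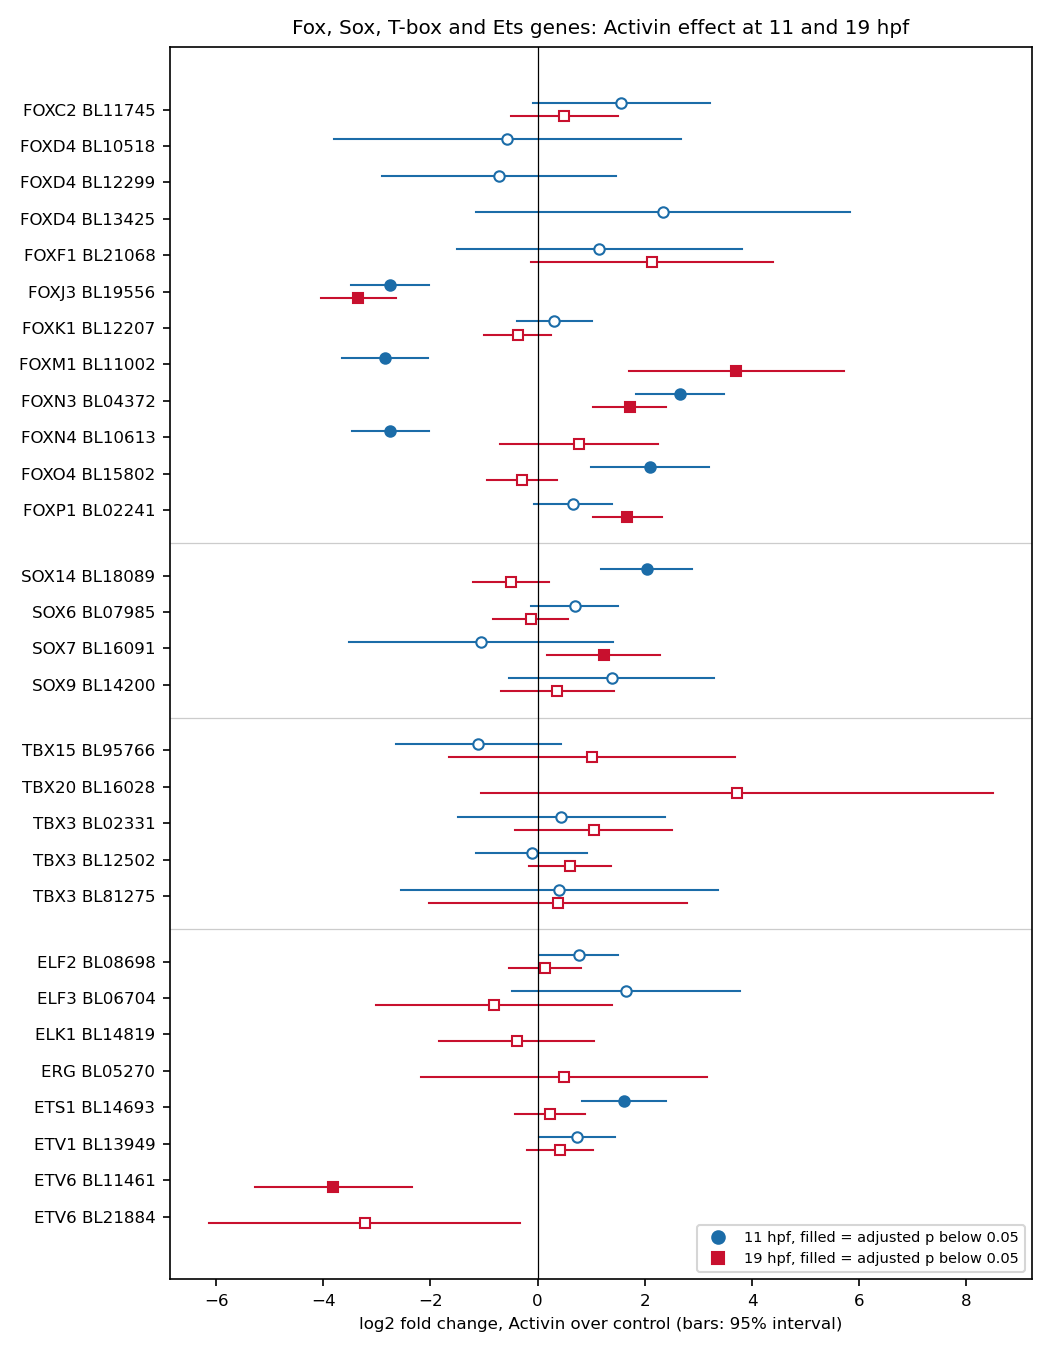
Log2 fold change of Activin over control (horizontal axis) of 29 of the 30 genes at 11 hpf (circles) and 19 hpf (squares), with 95% intervals from the authors' standard errors; filled symbols have an adjusted p below 0.05, and the values of FOXD4 BL13425, TBX20 and ETV6 BL21884 rest on a group mean under 3 normalized counts. Filled symbols fall on Fox, Sox and Ets genes, FOXM1 lies on opposite sides of 0 at the 2 times, and all T-box symbols are open.

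At 11 hpf 7 of the 25 genes with a row were called, 4 higher and 3 lower, which is 28% of them, against 36.6% of all 15793 rows in the authors' deposited table. All 7 had a mean of 20 or more normalized counts. Among the 18 that reached this mean 38.9% were called, against 45.4% of such rows, so both shares lay below those of the whole table, a contrast that was not tested. By family 2 Fox genes were higher and 3 lower of 13, 1 Sox gene was higher of 4, 1 Ets gene was higher of 4, and none of 4 T-box genes was called. The median log2 fold change of the 25 was 0.69, beside 0.07 over all rows. Of all rows 12% were called higher and 24.6% lower.

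FOXJ3 (BL19556), a forkhead factor that activates Mef2c in mouse muscle, averaged 255 normalized counts in Activin and 1729 in control explants. The authors' deposited table gave a log2 fold change of -2.76 ± 0.37, adjusted p = 1.3e-12, a 6.77-fold lower level. FOXN4 (BL10613) acts in mouse retina and spinal cord and, in Xenopus, in cells that bear many motile cilia. It averaged 378 normalized counts in Activin and 2543 in control explants. Its log2 fold change in the authors' deposited table was -2.75 ± 0.36, adjusted p = 6.7e-13. Both genes were called lower, as were 11 of 12 rows of the motile cilia markers. The part of ciliated cells in these values was not tested.

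FOXM1 (BL11002), an activator of genes for mitosis, averaged 378 normalized counts in Activin and 2726 in control explants at 11 hpf. In the authors' deposited table this was a log2 fold change of -2.85 ± 0.41, adjusted p = 6.5e-11, or 7.20-fold lower. FOXN3 (BL04372), a repressor tied to the cell cycle checkpoint in vertebrates, went the other way. It averaged 2360 normalized counts in Activin and 374 in control explants, and the authors' deposited table gave 2.66 ± 0.42, adjusted p = 2.1e-09.

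FOXO4 (BL15802) belongs to the FoxO factors, which insulin signalling through AKT keeps out of the nucleus. It averaged 189 normalized counts in Activin and 44.2 in control explants at 11 hpf. The authors' deposited table gave a log2 fold change of 2.09 ± 0.56, adjusted p = 9.6e-04, a 4.27-fold higher level. Among the called genes of this time it had the largest standard error.

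SOX14 (BL18089) belongs to the SoxB2 group, repressors that oppose the SoxB1 activators of the vertebrate neural plate. It averaged 473 normalized counts in Activin and 115 in control explants, a log2 fold change of 2.03 ± 0.43, adjusted p = 1.6e-05, in the authors' deposited table. ETS1 (BL14693), an Ets factor that ERK phosphorylates and that acts in the FGF response of ascidian neural induction, averaged 1728 normalized counts in Activin and 564 in control explants. Its log2 fold change in the authors' deposited table was 1.61 ± 0.40, adjusted p = 3.1e-04. All 7 calls at 11 hpf were kept under the 7 other thresholds, filters and scalings tried. With upper quartiles set equal 9 genes were higher and 3 lower, and with totals set equal 12 and 3.

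**Figure D2:**
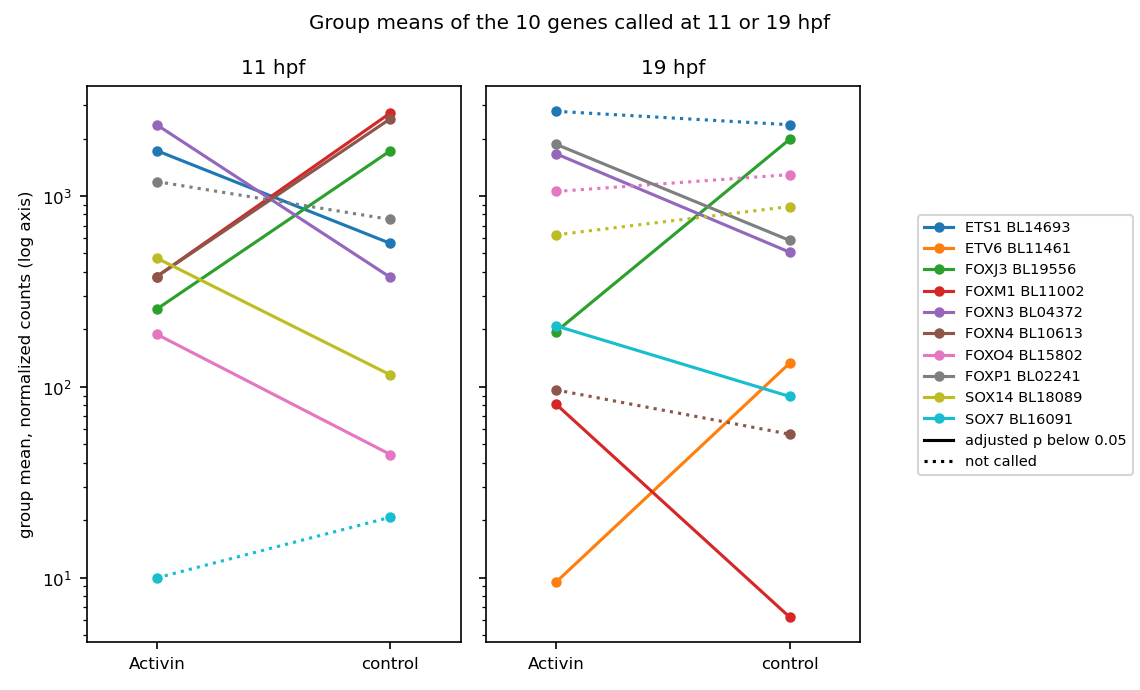
Rebuilt group means in normalized counts (vertical log axis) of the 10 genes called at either time, in Activin (left) and control explants (right) at 11 hpf (left panel) and 19 hpf (right panel); solid lines join genes with an adjusted p below 0.05 at that time. FOXM1 stands at 378 in Activin and 2726 in control explants at 11 hpf, and at 81.1 in Activin and 6.21 in control explants at 19 hpf.

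At 19 hpf 6 of 27 genes were called, 4 higher and 2 lower, which is 22.2% of them, against 46.4% of all 16733 rows. Among the 22 genes with a mean of 20 or more the share was 27.3%, against 55% of such rows. By family 3 Fox genes were higher and 1 lower of 10, 1 Sox gene was higher of 4, 1 Ets gene was lower of 8, and none of 5 T-box genes was called. The median log2 fold change of the 27 was 0.42, beside 0.07 over all rows, and the median of its absolute value was 0.77, beside 1.68. Of all rows 18.7% were called higher and 27.7% lower.

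FOXJ3 averaged 195 normalized counts in Activin and 1982 in control explants at 19 hpf, 10.2-fold lower. The authors' deposited table gave -3.35 ± 0.36, adjusted p = 9.4e-20, the smallest adjusted p of the 30 genes at either time. All 12 rows of the motile cilia markers were lower at this time too, while FOXN4 was not called, at 0.77 ± 0.75 in the authors' deposited table. The part of ciliated cells in these values was not tested. FOXN3 averaged 1665 normalized counts in Activin and 508 in control explants, with 1.71 ± 0.35, adjusted p = 5.1e-06, in the authors' deposited table. FOXJ3 and FOXN3 were thus called in the same direction at both times.

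FOXM1 averaged 81.1 normalized counts in Activin and 6.21 in control explants at 19 hpf. The log2 fold change in the authors' deposited table was 3.71 ± 1.02, adjusted p = 9.9e-04, with a 95% interval from 1.71 to 5.71. The wide interval goes with a mean of 43.7 normalized counts over the libraries of this time, against 1552 at 11 hpf. FOXP1 (BL02241), a repressor active in mouse heart, lung and motor neurons, averaged 1867 normalized counts in Activin and 585 in control explants. Its log2 fold change was 1.67 ± 0.33, adjusted p = 2.3e-06, in the authors' deposited table. At 11 hpf FOXP1 averaged 1190 normalized counts in Activin and 753 in control explants and was not called (0.66 ± 0.37, adjusted p = 0.15, in the authors' deposited table). With upper quartiles set equal it was called higher at 11 hpf too (1.10, adjusted p = 0.0096 by the Wald test).

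SOX7 (BL16091), of the SoxF group that acts in vertebrate endothelium, averaged 209 normalized counts in Activin and 89.0 in control explants at 19 hpf. The authors' deposited table gave 1.23 ± 0.54, adjusted p = 0.049, the weakest of the calls. At 11 hpf it averaged 9.97 normalized counts in Activin and 20.7 in control explants and was not called (-1.06 ± 1.25 in the authors' deposited table). Of 7 vessel and blood markers 3 symbols had rows at 19 hpf, LMO2, KDR, TAL1 and GATA1 had none, and none of their 5 rows was called, with 0 at an unadjusted p below 0.05; summed means were 776 in Activin and 796 in control explants. At 11 hpf 4 of these symbols had rows, LMO2, KDR and GATA1 had none, 1 of 6 rows was lower, and summed means were 116 in Activin and 124 in control explants.

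ETV6 encodes an Ets repressor required for blood formation in mouse, and both of its identifiers had a row only at 19 hpf. ETV6 (BL11461) averaged 9.47 normalized counts in Activin and 133 in control explants, 14.1-fold lower. The authors' deposited table gave -3.81 ± 0.75, adjusted p = 1.8e-06. ETV6 (BL21884) averaged 2.995 normalized counts in Activin and 28.0 in control explants and was not called, adjusted p = 0.061 in the authors' deposited table. Its Activin mean lay under the floor of 3 normalized counts set for a readable fold, so no fold is given. At 19 hpf the scaling mattered more than at 11 hpf. Upper quartiles set equal gave 9 higher and 2 lower, totals set equal 13 and 2, and centring on ribosomal protein genes 1 higher and 9 lower, with the calls of FOXN3, FOXP1 and SOX7 ended under the last.

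**Figure D3:**
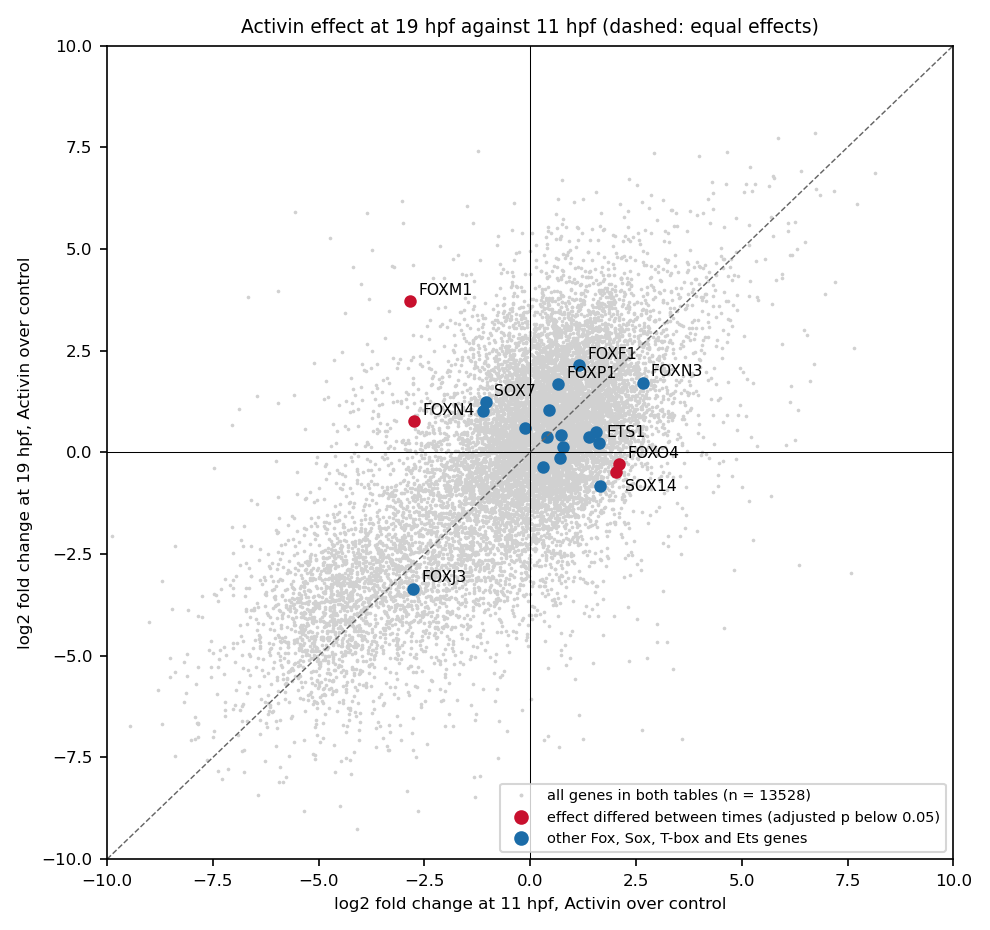
Log2 fold change of Activin over control at 19 hpf (vertical axis) against that at 11 hpf (horizontal axis) for all 13528 genes in both tables (grey) and 21 of the 22 Fox, Sox, T-box and Ets genes among them; red marks those whose effect differed between times at an adjusted p below 0.05, and the dashed line marks equal effects. FOXM1 lies at -2.85 and 3.71, FOXN4 and FOXM1 above the dashed line, and FOXO4 and SOX14 below it.

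Whether the Activin effect itself changed between 11 and 19 hpf was tested as the difference of both log2 fold changes, by a Wald test with Benjamini-Hochberg adjustment over all 13528 genes in both tables. The times share no library. The effect differed for 4 of the 22 genes, FOXM1, FOXN4, FOXO4 and SOX14, which is near the background of 16.8% of genes. The effect was more positive at 19 hpf for 2 genes, FOXM1 and FOXN4, and more negative for 2, FOXO4 and SOX14; over all genes these shares were 10.1% and 6.7%.

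For FOXM1 the difference was 6.56 ± 1.10 on the log2 scale, adjusted p = 2.2e-07, with a 95% interval from 4.40 to 8.71. By absolute size it ranked 61 among the 13528 differences. FOXM1 alone among the 22 genes was called at both times with opposite signs, a pattern held by 183 genes or 1.35% of those in both tables. Its mean in control explants was 2726 normalized counts at 11 hpf and 6.21 at 19 hpf, while its mean in Activin explants was 378 and 81.1. FOXN4 differed by 3.52 ± 0.84, adjusted p = 5.3e-04. At 19 hpf FOXN4 averaged 96.4 normalized counts in Activin and 56.4 in control explants and was not called (0.77 ± 0.75 in the authors' deposited table). For both genes the control means of the 2 tables lay farther apart than the Activin means.

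FOXO4 differed by -2.39 ± 0.65, adjusted p = 0.0035. At 19 hpf it averaged 1056 normalized counts in Activin and 1294 in control explants, at -0.29 ± 0.33 in the authors' deposited table, not called. SOX14 differed by -2.53 ± 0.56, adjusted p = 1.8e-04. At 19 hpf it averaged 626 normalized counts in Activin and 881 in control explants, at -0.49 ± 0.36 in the authors' deposited table, not called. For these genes the Activin mean lay several-fold above control at 11 hpf only, and the control mean in the 19 hpf table was the higher of the 2 tables. ETS1 had a difference of -1.38 ± 0.52, adjusted p = 0.05002, just outside the threshold. At 19 hpf ETS1 averaged 2779 normalized counts in Activin and 2363 in control explants and stood at 0.23 ± 0.34 in the authors' deposited table. SOX7, called at 19 hpf only, and FOXP1 likewise were not shown to differ between times, at 2.28 ± 1.37 (adjusted p = 0.26) and 1.01 ± 0.49 (adjusted p = 0.15). FOXJ3 differed by -0.59 ± 0.51 and FOXN3 by -0.94 ± 0.55, with intervals from -1.60 to 0.42 and from -2.01 to 0.13.

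**Figure D4:**
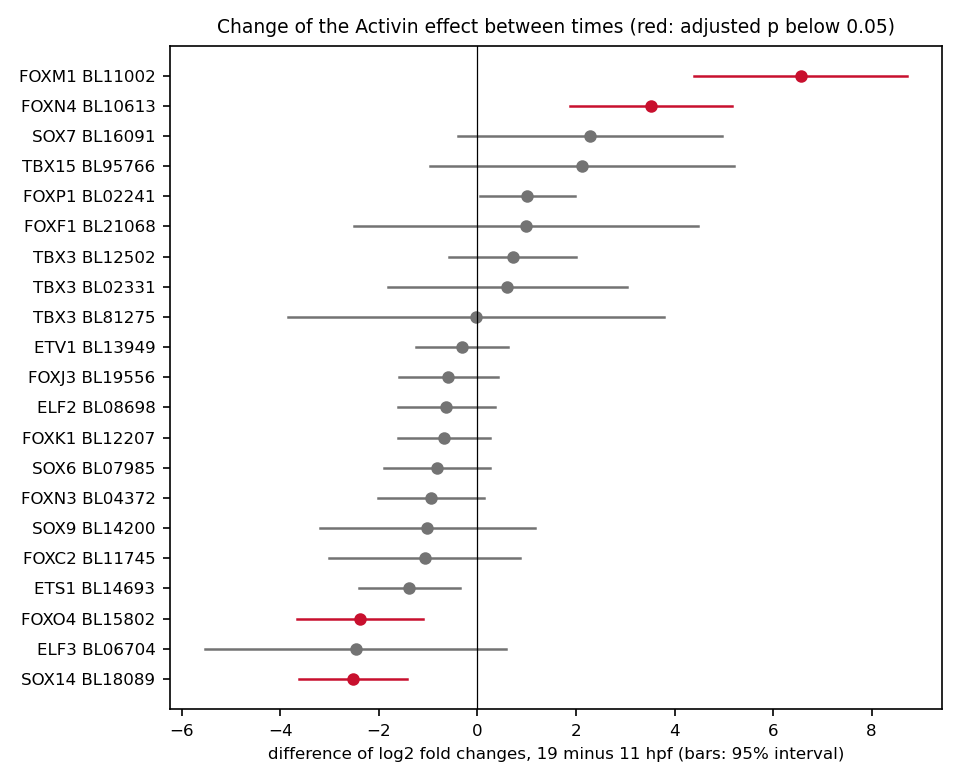
Difference of the Activin effect, log2 fold change at 19 hpf minus that at 11 hpf (horizontal axis), with 95% intervals for 21 of the 22 genes in both tables; red marks an adjusted p below 0.05. FOXM1 and FOXN4 lie above 0 at 6.56 and 3.52, FOXO4 and SOX14 below 0 at -2.39 and -2.53.

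There were 20 genes called at neither time, and 9 of these had a mean of 20 or more at both. Their 18 log2 fold changes ran from -0.82 to 1.65. FOXK1 (BL12207), a forkhead factor of muscle progenitors and metabolism, averaged 1666 normalized counts in Activin and 1347 in control explants at 11 hpf, and 1531 in Activin and 1982 in control explants at 19 hpf. The authors' deposited table gave it 0.31 ± 0.36 and -0.37 ± 0.32, and the 95% interval at 11 hpf leaves room for a 2.01-fold higher level. ETV1 (BL13949), of the PEA3 group of FGF-responsive Ets factors, averaged 2787 normalized counts in Activin and 1683 in control explants at 11 hpf, and 3103 in Activin and 2321 in control explants at 19 hpf. The authors' deposited table gave it 0.73 ± 0.36, adjusted p = 0.10, and 0.42 ± 0.31, adjusted p = 0.27. ELF2 (BL08698), an Ets factor known from mammalian lymphocytes, had 0.77 ± 0.37 and 0.14 ± 0.34 in the authors' deposited table. ETV1 and ELF2 at 11 hpf passed the threshold under each scaling that raises the fold changes (centring on well measured genes, upper quartiles, totals). ETV1 at 19 hpf was called higher with upper quartiles set equal (0.96, adjusted p = 0.0055 by the Wald test).

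SOX6 (BL07985), of the SoxD group that acts in vertebrate cartilage and neurons, stood at 0.69 ± 0.41 at 11 hpf and -0.13 ± 0.36 at 19 hpf in the authors' deposited table. SOX9 (BL14200), of the SoxE group of vertebrate neural crest and cartilage, stood at 1.38 ± 0.98 and 0.37 ± 0.54 there. FOXC2 (BL11745), of the FoxC genes of somites and mesenchyme, stood at 1.56 ± 0.85 and 0.49 ± 0.51 in the authors' deposited table. ELF3 (BL06704), an Ets factor of epithelia in mammals, had 1.65 ± 1.08 and -0.82 ± 1.12 in the authors' deposited table, with 33.0 normalized counts in Activin and 10.5 in control explants at 11 hpf. These 4 genes were not called at either time, and their intervals at 11 hpf all include 0.

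Under the authors' scaling the T-box genes were the family without a call among the genes taken by the rule, which left out T. TBX3 encodes a repressor of vertebrate limb, heart and ventral tissues, and the identifier of the highest mean count, BL12502, averaged 138 normalized counts in Activin and 150 in control explants at 11 hpf and 517 in Activin and 341 in control explants at 19 hpf. The authors' deposited table gave it -0.11 ± 0.53 and 0.60 ± 0.39, and gave TBX3 (BL02331) 0.44 ± 0.99 and 1.04 ± 0.75. BL12502 was called higher at 19 hpf with upper quartiles set equal (1.14, adjusted p = 0.0087 by the Wald test) and with totals set equal (1.46), and BL02331 with totals set equal (1.90). TBX3 (BL81275) stayed under 20 normalized counts at both times, at 0.40 ± 1.51 and 0.38 ± 1.23 in the authors' deposited table. TBX15 (BL95766), a gene of skeletal and muscle development in mouse, stood at -1.11 ± 0.79 and 1.02 ± 1.36 there. TBX20 (BL16028), a heart factor of vertebrates, had a row only at 19 hpf with a mean of 5.84 normalized counts. The T-box median standard error was 0.89 at 11 hpf and 1.23 at 19 hpf, beside 0.70 and 0.65 over all rows.

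The 11 genes called at neither time that were rarer or had a row at 1 time include FOXD4 (3 identifiers), FOXF1, TBX15, TBX20, TBX3 (BL81275), ELK1, ERG and ETV6 (BL21884). The standard errors of their 15 log2 fold changes ran from 0.74 to 2.44. No fold is read for TBX20, ETV6 (BL21884) and FOXD4 (BL13425), whose lower group mean lay under 3 normalized counts. FOXF1 (BL21068), a gene of visceral mesoderm, averaged 74.3 normalized counts in Activin and 16.9 in control explants at 19 hpf, at 2.14 ± 1.15, adjusted p = 0.12, in the authors' deposited table. FOXF1 was positive at both times and passed at neither under the authors' scaling. With upper quartiles set equal it was called higher at 19 hpf (2.68, adjusted p = 0.041 by the Wald test). FOXD4, whose Xenopus relatives hold neural ectoderm in an immature state, had rows only at 11 hpf. The authors' deposited table gave its identifiers -0.57 ± 1.65 (BL10518) and -0.73 ± 1.11 (BL12299), while FOXD4 (BL13425) averaged 13.1 normalized counts in Activin and 2.58 in control explants. ELK1 (BL14819), an ERK target that binds with the serum response factor, stood at -0.39 ± 0.74 and ERG (BL05270), of vertebrate endothelium, at 0.49 ± 1.36 at 19 hpf in the authors' deposited table.

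**Figure D5:**
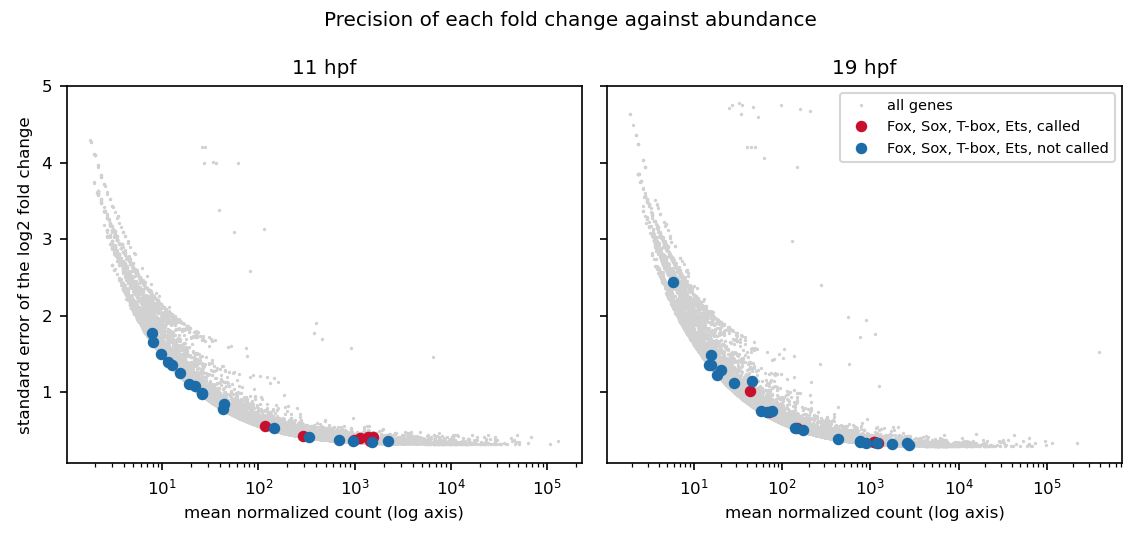
Standard error of the log2 fold change (vertical axis) against the mean normalized count (horizontal log axis) at 11 hpf (left) and 19 hpf (right), for all genes (grey) and for the Fox, Sox, T-box and Ets genes that were called (red) or not (blue). The genes under 20 normalized counts, 7 at 11 hpf and 5 at 19 hpf, have standard errors above 1 and none of them was called.

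How far the calls depended on abundance was read from 3 classes of mean. Under 20 normalized counts 0 of 7 genes were called at 11 hpf and 0 of 5 at 19 hpf by the authors' Wald test, against 13.3% and 15.3% of all such rows. At an unadjusted p below 0.05 there were 0 at 11 hpf and 1 at 19 hpf, ETV6 (BL21884). From 20 to 1000 normalized counts 3 of 12 were called at 11 hpf and 3 of 15 at 19 hpf, against 42.4% and 51.9% of such rows. At 1000 or more 4 of 6 were called at 11 hpf and 3 of 7 at 19 hpf, against 61.8% and 71%. A log2 standard error of the median size gave a 95% limit of 8.83-fold under 20 counts and of 1.61-fold at 1000 or more at 11 hpf, and of 10.7-fold and 1.56-fold at 19 hpf.

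The Fox, Sox and T-box symbols set aside by the rule had the following calls. At 11 hpf 3 Fox rows were higher and 2 lower of 9, 4 Sox rows were higher of 5, and 1 T-box row was higher and 1 lower of 2. At 19 hpf the counts were 5 higher and 4 lower of 9 Fox rows, 4 higher of 5 Sox rows and 1 higher of 2 T-box rows. Over all rows 36.6% were called at 11 hpf and 46.4% at 19 hpf, and of rows with a mean of 20 or more 45.4% and 55%. At 19 hpf the median mean count of the Sox rows set aside was 1998, beside 451 for the Sox genes taken by the rule. For Fox these medians were 522 and 629. The symbols set aside were chosen with results of these data known, so no test of their contrast with the 30 genes was made.

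Genes that act on or with these factors were counted from chosen lists. For the ERK cascade, which phosphorylates Ets proteins, 12 rows were measured at each time. At 11 hpf 1 was higher and 3 lower, and at 19 hpf 0 were higher and 6 lower. These are 33.3% and 50% of the rows, near the 36.6% and 46.4% called over all rows. The adaptor GRB2 had 2 identifiers, of which BL00705 had the largest changes of the list, -3.95 ± 0.51 at 11 hpf and -5.71 ± 0.38 at 19 hpf in the authors' deposited table. GRB2 (BL08476) was not called at either time, at -0.68 ± 0.37 and 0.23 ± 0.35 in the authors' deposited table. The phosphatase PTPN11 (BL08384) stood at -3.15 ± 0.41 and -2.84 ± 0.33 there, and the kinase BRAF (BL18057) at 2.25 ± 0.45 at 11 hpf and, not called, at -0.15 ± 0.37 at 19 hpf. Of 3 Ets rows outside the rule at 11 hpf only ERF (BL08094), a repressor that ERK moves out of the nucleus, was called. ERF averaged 277 normalized counts in Activin and 1883 in control explants at 11 hpf, at -2.76 ± 0.44, adjusted p = 2.5e-09, in the authors' deposited table. At 19 hpf none of 4 such rows was called, with 1 at an unadjusted p below 0.05, ERF, which stood at 1.69 ± 0.83, adjusted p = 0.081, in the authors' deposited table.

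For the PI3K and AKT arm, which acts on FoxO proteins, 17 rows were measured at each time, with 3 higher and 4 lower at 11 hpf and 1 higher and 5 lower at 19 hpf. The called share was 41.2% at 11 hpf and 35.3% at 19 hpf, against 36.6% and 46.4% of all rows. The lower rows at 11 hpf were 4 identifiers named YWHAZ, a 14-3-3 protein of the kind that holds FoxO in the cytoplasm. The copy of the highest mean count, YWHAZ (BL06402), stood at -6.20 ± 0.43 at 11 hpf and -6.17 ± 0.37 at 19 hpf in the authors' deposited table. PIK3R1 (BL19350), a regulatory subunit of PI3K, stood at 2.48 ± 0.42 at 11 hpf and 1.06 ± 0.33 at 19 hpf in the authors' deposited table. PDPK1 (BL16577), a kinase that activates AKT, stood there at 2.47 ± 0.44 and, not called at 19 hpf, at -0.28 ± 0.33. With totals set equal the larger side turned to higher for the ERK list at both times and for the PI3K list at 19 hpf, and with upper quartiles set equal for the ERK list at 11 hpf.

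Among POU and HMG factors that pair with or resemble Sox proteins, 3 rows were higher and 1 lower of 7 at 11 hpf, and 5 higher and 1 lower of 7 at 19 hpf. Their called shares were 57.1% and 85.7%, over 7 rows only, against 36.6% and 46.4% of all rows. POU3F4 (BL49994), among the higher rows at 11 hpf, averaged 37.2 normalized counts in Activin and 0.67 in control explants, under the floor for a fold. POU3F3 (BL16866), a POU factor of the neural tube, was higher at 11 hpf, with 132 normalized counts in Activin and 2.12 in control explants, a control mean under the floor for a fold. At 19 hpf it stood at 4.38 ± 0.38 in the authors' deposited table. TCF7L2 (BL13538), an HMG effector of Wnt signals, stood at -2.10 ± 0.36 at 11 hpf and, not called, at -0.19 ± 0.32 at 19 hpf in the authors' deposited table. HMGB1 (BL11411), an abundant chromatin protein, stood there at 0.49 ± 0.33 at 11 hpf, not called, and at 2.21 ± 0.30 at 19 hpf. Of 8 rows for Groucho corepressors and T-box partners, 2 were higher and 0 lower at 11 hpf, and 3 higher and 1 lower at 19 hpf, or 25% and 50% of the rows, against 36.6% and 46.4% of all rows. RIPPLY2 (BL12781), which turns T-box activators into repressors in vertebrate somites, stood at 4.26 ± 0.74 at 11 hpf and 1.82 ± 0.56 at 19 hpf in the authors' deposited table. GATA4 (BL08554), a partner of heart T-box factors in vertebrates, stood at -0.22 ± 1.14 at 11 hpf, not called, and at -3.10 ± 0.32 at 19 hpf in the authors' deposited table. Centring on ribosomal protein genes left 0 rows of this last list higher and 2 lower at 19 hpf. The other scalings went the opposite way. Centring on well measured genes and upper quartiles set equal each gave 5 higher and 1 lower, and totals set equal gave 6 and 1.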

How the data were processed

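The deposited files are 2 tables of the authors' own comparisons, 1 per time. HISAT2, featureCounts and edgeR are named in the submitters' processing notes, without versions, while the headers carry column names as DESeq2 writes them. Genome build and annotation are not given in the sources used here. Per the file headers, the mean over libraries is a normalized count signal made by the authors. Fold change and standard error are log2 values deposited by the authors. The test column is a score deposited by the authors, and it equals the log2 value over its standard error. Raw and adjusted p-values were deposited by the authors, and the adjustment covers exactly the deposited rows.

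Genes were found by symbol, and p-values were taken over whole tables. The Wald test of the difference between times, the rebuilt means and 7 alternative settings were computed here. Python 3.11.15, pandas 2.3.3, numpy 2.4.6 and scipy 1.17.1 were used. The difference test was also run on simulated data whose noise had exactly the deposited standard errors. That run could therefore not check those errors, which rest on 2 libraries per group. The edgeR fit foreseen for counts per library was not run. No fold is read where the lower group's mean is under 3 normalized counts. Named with values were genes called at either time and those with a mean of 20 or more at both, with the rest given more briefly; 1 gene, not called at either time, is counted but not reported here. The genes, lists and marker lists were chosen with earlier results of these data known, and replicates beyond pooled explants are not described, so p-values measure the spread between these samples.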

Additional observations from a re-analysis of the deposited data

Results flagged for a closer look

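In 4 genes the Activin effect differed between 11 and 19 hpf by the Wald test of the difference, with Benjamini-Hochberg adjustment over 13528 genes. FOXM1 (BL11002) changed by 6.56 and FOXN4 (BL10613) by 3.52 on the log2 scale, both toward higher in Activin at 19 hpf. FOXO4 (BL15802) changed by -2.39 and SOX14 (BL18089) by -2.53. Each kept its call under the 6 alternatives run for this test.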

How the results depend on the processing

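No paired analysis was possible because the tables hold no values per library, and for the same reason leaving out each replicate, edgeR and DESeq2 were not run. Other scalings moved the counts of genes most. With upper quartiles set equal 12 genes were called at 11 hpf (9 higher) and 11 at 19 hpf (9 higher), 17 at either time. With totals set equal these were 15 (12 higher), 15 (13 higher) and 21. On ribosomal protein genes 10 were called at 19 hpf, 1 higher and 9 lower, and 9 differed between times. There ELF2 and ETS1 turned to called lower at 19 hpf, at -0.91 and -0.81. With upper quartiles set equal ETS1 was instead called higher at 19 hpf (0.78, adjusted p = 0.043 by the Wald test). The log2 shifts were 0.44, 0.98 and -0.37 at 11 hpf and 0.54, 0.86 and -1.05 at 19 hpf, and 0.20 and 0.26 for centring on well measured genes. Of all calls at 19 hpf 59.7% were lower, against 44.8%, 37.1% and 85.2% under those 3 scalings, and at 11 hpf 67.2%, against 51.7%, 35.2% and 78.7%. An adjusted p below 0.01 removed SOX7 at 19 hpf alone. The difference for ETS1 passed when adjusted over genes with a mean of 20 or more, adjusted p = 0.041, and over its 6 alternatives that value ran from 0.0012 to 0.074.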
